A study of Mus musculus with 11 samples.

Results

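The 33 genes described here are macrophage and dendritic cell genes, chosen by symbol from a list of genes known to be expressed by these cells, among 24250 gene symbols listed for RNA-seq libraries of mouse small intestine. All 33 were found. Mice of 3 groups were sequenced: 4 libraries from mice given FSP, a powder with the fungus Poria used in traditional Chinese medicine, 4 from the HFD group (read here as high-fat diet) and 3 from the ND group (read here as normal diet). The series title speaks of obese mice, and the labels name the FSP group by the preparation alone, without its diet. No strain, age, sex, dose, duration or segment of the small intestine was given, and no source ties each library to an animal of its own, so p-values reflect only how far these libraries differ, which may in part be technical.

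Macrophages and dendritic cells are the phagocytes of the intestinal wall. Macrophages of the lamina propria take up bacteria and dying cells, depend on the growth factor receptor Csf1r, and are replenished in the adult gut largely from blood monocytes. Dendritic cells carry antigen to lymph nodes and Peyer's patches, where they activate lymphocytes; their development depends on the receptor Flt3 and, for the cross-presenting subset marked by Xcr1, on the transcription factors Irf8 and Batf3. The factor PU.1, encoded by Spi1, binds purine-rich sites in many myeloid genes, and it also acts in B cells. Several of the genes are made by B cells too, among them Cd53, Laptm5, Spi1, Irf8, Cybb, Cd86 and Itgb2, so their level in whole tissue is not specific to phagocytes.

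Promoter windows are shown for the C1q chains C1qb and C1qc and the leukocyte genes Cd53 and Laptm5, whose levels ranged widely over the libraries, and for Lgmn, the only member called with all libraries. Of the 33 members 24 had an entry that was used among RefSeq promoters (build GRCm38.p6, 250 bases before to 50 after a start site), with 28 windows. The letters GAGGAA, known as the PU-box and read on both strands (TTCCTC on the other), are in capitals. They occurred in 14 of the 28 member windows, in 13 members, and in 28.3% of all 32851 windows of that length. The windows of C1qb and C1qc come from a cluster of C1q genes on chromosome 4 and are followed by those of Cd53 and Laptm5. Neither of the 2 Lgmn windows on chromosome 12, of which 1 is shown, held these letters, and nor did the windows of 10 other members, Mpeg1, Lyz2, Fcer1g and Itgax among them. A missing match says nothing about binding.
C1qb, chr4:136886151-136886450, minus strand: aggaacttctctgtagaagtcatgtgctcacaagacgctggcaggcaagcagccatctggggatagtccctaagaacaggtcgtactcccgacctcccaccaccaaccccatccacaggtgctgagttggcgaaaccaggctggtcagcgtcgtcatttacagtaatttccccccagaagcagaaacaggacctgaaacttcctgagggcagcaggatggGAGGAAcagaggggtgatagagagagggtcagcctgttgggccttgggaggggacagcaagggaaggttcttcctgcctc
C1qc, chr4:136892865-136893164, minus strand: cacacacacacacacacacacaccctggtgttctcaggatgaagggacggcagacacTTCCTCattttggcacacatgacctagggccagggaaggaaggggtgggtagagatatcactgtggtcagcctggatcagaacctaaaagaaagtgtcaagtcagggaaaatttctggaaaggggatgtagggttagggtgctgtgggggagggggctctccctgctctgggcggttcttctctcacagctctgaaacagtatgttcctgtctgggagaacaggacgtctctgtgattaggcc
Cd53, chr3:106790100-106790399, minus strand: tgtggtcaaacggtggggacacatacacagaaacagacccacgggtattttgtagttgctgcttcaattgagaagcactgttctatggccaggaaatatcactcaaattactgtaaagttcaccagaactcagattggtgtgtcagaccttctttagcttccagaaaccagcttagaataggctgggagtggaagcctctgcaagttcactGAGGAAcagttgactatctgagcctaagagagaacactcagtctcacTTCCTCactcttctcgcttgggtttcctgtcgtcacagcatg
Laptm5, chr4:130913066-130913365, plus strand: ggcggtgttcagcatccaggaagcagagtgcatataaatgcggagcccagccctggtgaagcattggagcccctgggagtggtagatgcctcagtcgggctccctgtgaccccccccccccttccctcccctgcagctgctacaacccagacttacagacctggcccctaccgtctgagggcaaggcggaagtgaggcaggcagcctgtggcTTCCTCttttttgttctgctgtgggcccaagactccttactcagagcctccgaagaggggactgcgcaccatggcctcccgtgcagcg
Lgmn, chr12:102439679-102439978, minus strand: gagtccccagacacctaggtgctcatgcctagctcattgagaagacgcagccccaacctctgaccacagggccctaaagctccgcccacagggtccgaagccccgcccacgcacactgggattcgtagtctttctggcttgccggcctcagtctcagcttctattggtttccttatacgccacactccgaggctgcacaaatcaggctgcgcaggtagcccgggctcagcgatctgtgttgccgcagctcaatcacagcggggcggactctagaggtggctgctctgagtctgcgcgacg

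Values are FPKM, fragments per kilobase of gene, scaled to the fragments of the library, so they compare levels per length. Libraries held 31842012 (HFD 1) to 38246024 (FSP 4) fragments, and a gene of 1 kb at 1 FPKM rested on 32 fragments in the shallowest. The epithelial gene Epcam stood at 396 to 936 FPKM in all 11 libraries, whereas most members were low: 20 averaged at least 1 FPKM over the 11 libraries and were tested, and 13 did not (Flt3, Cx3cr1, Xcr1, Itgax, Adgre1, Cd163, Cd209a, Clec10a, Fcgr1, Fcgr3, Batf3, Ms4a7 and Cd86). The defining macrophage gene Adgre1 (F4/80) was counted by 4 to 42 fragments in a library, and the neutrophil genes S100a8 and S100a9 stayed at or under 0.288 FPKM. In whole tissue, fewer cells of a type and less RNA per cell cannot be told apart.

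Single libraries stood apart. FSP 3 was the lowest FSP library in 30 of the 33 members and the lowest of all 11 in 18. FSP 1 was the highest of all 11 in 20. The members together summed to 288, 210, 55.3 and 148 FPKM in FSP 1 to 4, to 177, 179, 102 and 66.9 FPKM in HFD 1 to 4, and to 101, 97.3 and 80.8 FPKM in ND 1 to 3. HFD 4 was the lowest HFD library in 20 members. FSP 3 was not a shallow library, at 38125662 fragments, and its epithelial genes averaged 8.70 as log2(FPKM + 1), against 8.77, 8.87 and 8.96 in FSP 1, 2 and 4. Its distal small intestine genes averaged 5.74, against 6.94 to 7.39 in the other FSP libraries. Mitochondrially encoded genes took 40.4% of summed FPKM in HFD 1 and 12.9% to 26.3% elsewhere. The median SD within the FSP group was 0.976 over the tested members and 0.242 over all 10296 tested genes on the log2(FPKM + 1) scale. In the HFD group it was 0.513 over the members and 0.230 over all genes, and in the ND group 0.187 and 0.126. The heat map of all members shows these libraries.

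**Figure D1:**
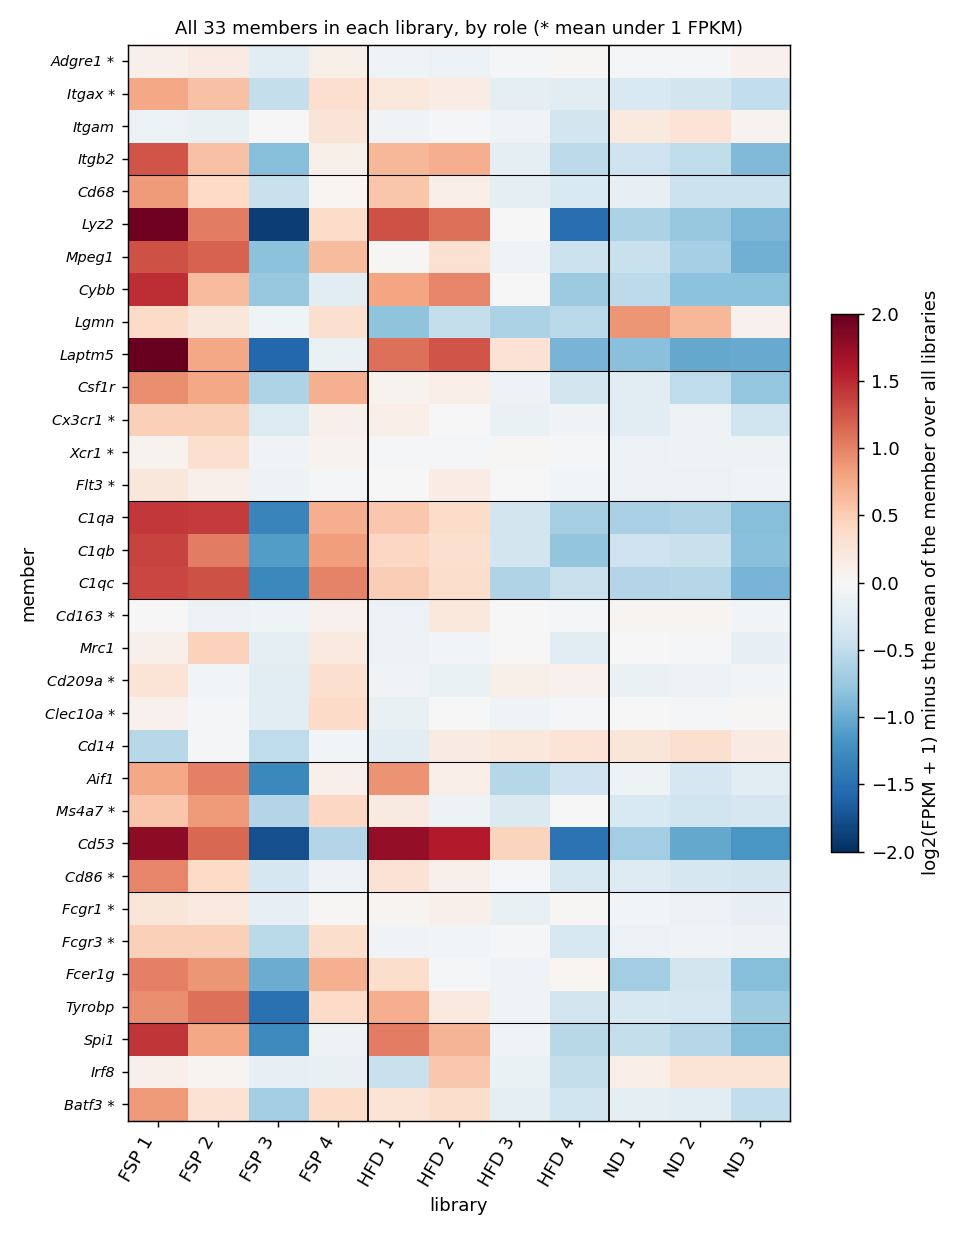
All 33 members (rows, grouped by role) in the 11 libraries (columns), coloured by log2(FPKM + 1) minus the mean of the member over all libraries, with colours saturating at 2 and −2. FSP 1 and FSP 2 are red and FSP 3 blue in most rows, HFD 1 and HFD 2 are mostly red, and Lgmn, Irf8, Itgam and Cd14 depart from this pattern.

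Tests used limma on log2(FPKM + 1) across all 10296 genes with a mean of at least 1 FPKM, with Benjamini-Hochberg adjustment and a threshold of 0.05. In FSP against HFD 1 of the 20 tested members rose (Lgmn) and none fell, while 3.74% of all tested genes were called (2.83% higher, 0.913% lower); 2 members had an unadjusted p under 0.05. In FSP against ND none of the 20 was called, with 6 at an unadjusted p under 0.05, beside 1.03% of all genes (0.699% higher, 0.33% lower). By limma's voom on whole fragments no member was called in FSP against ND or FSP against HFD, beside 0.357% and 1.44% of all genes. In HFD against ND none rose and 1 fell (Lgmn again), while 20.5% of all genes were called (5.36% higher, 15.1% lower). FSP against HFD and HFD against ND share the HFD libraries.

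The median log2 change over the tested members was 0.14 in FSP against HFD, where that of all tested genes was 0.12. It was 0.92 in FSP against ND, beside −0.07 over all genes, and 0.61 in HFD against ND, beside −0.21. With median-ratio scaling, which moves the median of all genes to −0.0016 in FSP against HFD and to −0.0013 in HFD against ND, the members' medians were 0.03 and 0.80. Under that scaling all tested genes split into 142 higher and 103 lower in FSP against HFD, in place of 291 and 94, and into 899 higher and 799 lower in HFD against ND, in place of 552 and 1557. Rescaling to an equal sum without mitochondrial genes gave 159 higher and 122 lower in FSP against HFD, and 72 higher and 71 lower in FSP against ND, in place of 72 and 34. Levels and orders of single libraries are given in unscaled FPKM throughout. Median-ratio scaling divides HFD 1 by 0.741 and FSP 4 by 1.15, so orders between such libraries can change with it.

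Leaving out FSP 3 changed the calls. FSP 3 is followed up because most members were low in it, although every library was left out in turn. Its removal raises the FSP mean of the members named here and narrows their spread. The p-values without FSP 3, here and below, therefore describe these libraries and are not an independent test. Fits with a library left out were run on unscaled FPKM only. In FSP against HFD 7 of the 20 members then rose (Csf1r, C1qa, C1qb, C1qc, Mpeg1, Fcer1g and Lgmn) beside 3.38% of all genes, and FSP against ND gave 6 that rose (Csf1r, C1qa, C1qb, C1qc, Mpeg1 and Fcer1g) beside 0.874%. Fcer1g then also rose in HFD against ND (beside 5.46% of all genes), where FSP 3 enters only the estimate of spread. Without any other library FSP against HFD gave 0 or 1 called member and FSP against ND gave 0.

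**Figure D2:**
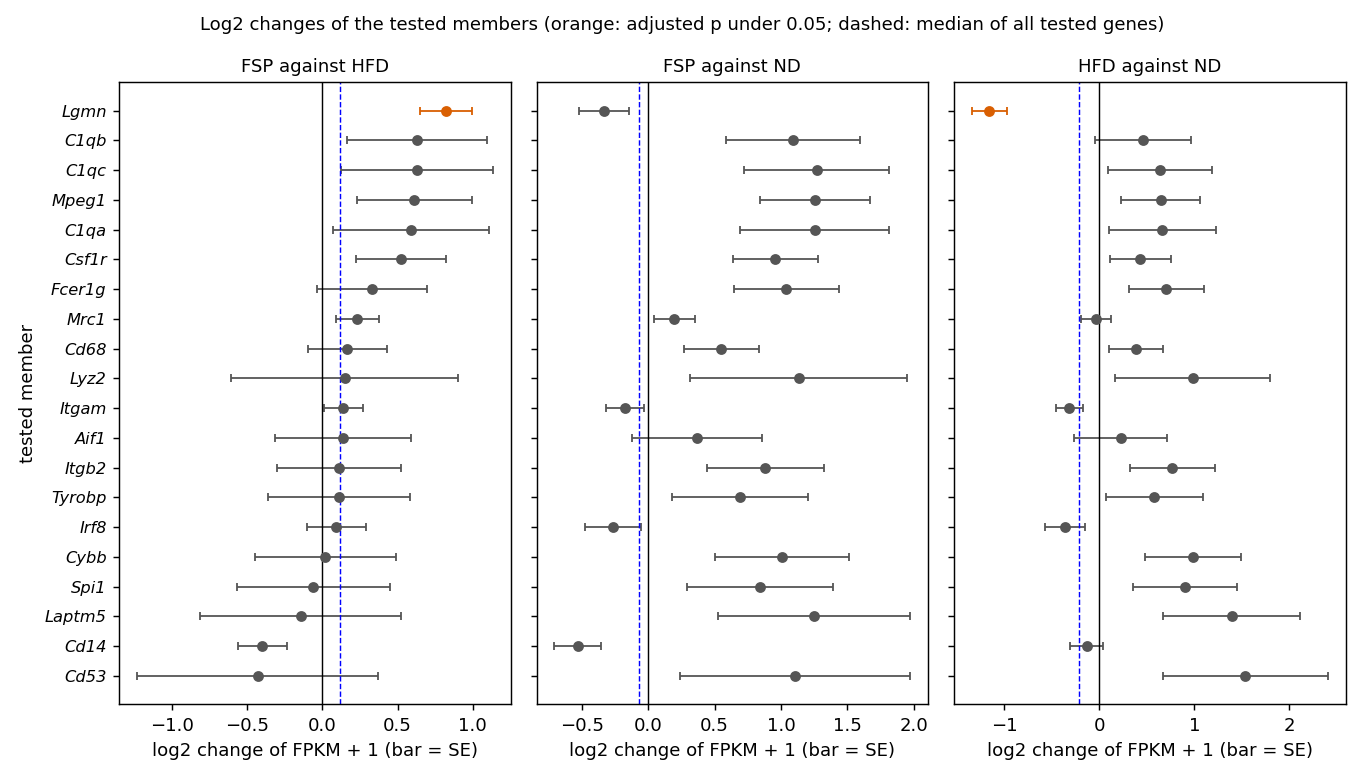
Log2 changes of FPKM + 1 with standard errors for the 20 tested members in the 3 comparisons; orange marks an adjusted p under 0.05 and the dashed line the median of all tested genes. Lgmn is the only orange point, higher in FSP than in HFD and lower in HFD than in ND.

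The receptors for growth factors and chemokines were led by Csf1r, the receptor for colony-stimulating factor 1 on which macrophages depend. Csf1r stood at 3.82, 3.31, 0.650 and 3.10 FPKM in FSP 1 to 4, at 1.65, 1.75, 1.33 and 0.949 FPKM in HFD 1 to 4, and at 1.15, 0.768 and 0.472 FPKM in ND 1 to 3. The FSP libraries other than FSP 3 lay above all HFD and ND libraries, and HFD overlapped ND through HFD 4. The log2 change in FSP against HFD was 0.52 (SE 0.30, limma adjusted p = 0.376), and without FSP 3 it was 0.88 (SE 0.17, limma adjusted p = 0.0200). The change in FSP against ND was 0.96 (SE 0.32, limma adjusted p = 0.196), and without FSP 3 1.31 (SE 0.18, limma adjusted p = 0.00832).

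Of the other receptors, all under the filter, Cx3cr1 is the fractalkine receptor of intestinal macrophages. It ran from 0.238 (FSP 3) to 1.09 FPKM (FSP 1) in FSP, 0.368 to 0.628 in HFD and 0.129 to 0.393 in ND, so the groups overlapped. Xcr1, the chemokine receptor of cross-presenting dendritic cells, was counted by 22, 62, 6 and 24 fragments in FSP 1 to 4, by 10, 8, 17 and 9 in HFD 1 to 4, and by 1, 2 and 2 in ND 1 to 3. All 8 FSP and HFD libraries lay above all ND libraries in Xcr1 FPKM (two-sided exact permutation p = 0.0286 for HFD against ND, the smallest this design can give, and exact permutation p = 0.0571 for FSP against ND, both unadjusted). Flt3, the receptor for the growth factor of dendritic cell precursors, had 65, 40, 7 and 16 fragments in FSP 1 to 4, 22, 46, 24 and 14 in HFD 1 to 4, and 4, 2 and 11 in ND 1 to 3. Its HFD libraries lay above its ND libraries (exact permutation p = 0.0571), and its FSP and HFD libraries overlapped. Clec9a, another gene of cross-presenting dendritic cells outside the 33, stood at 0.0717 to 0.544 FPKM in FSP, 0.0763 to 0.360 in HFD and 0.0163 to 0.0345 in ND. Clec9a was chosen after its values were seen, and its list as a whole overlapped between groups. The 25 other dendritic cell genes found averaged 0.948 to 1.86 as log2(FPKM + 1) in FSP, 1.06 to 1.59 in HFD and 1.05 to 1.19 in ND. Tlr3, of the same list, fell in HFD against ND (−0.93).

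The 3 chains of C1q, the first component of the classical complement pathway and a product of tissue macrophages, differed widely between FSP libraries. C1qa stood at 18.1, 17.9, 1.87 and 10.9 FPKM in FSP 1 to 4, at 9.38, 8.27, 4.54 and 3.52 FPKM in HFD 1 to 4, and at 3.57, 3.73 and 2.98 FPKM in ND 1 to 3. C1qb stood at 14.4, 11.3, 1.78 and 9.80 FPKM in FSP, at 7.03, 6.52, 3.68 and 2.50 FPKM in HFD, and at 3.55, 3.44 and 2.36 FPKM in ND. For both chains, in unscaled FPKM, FSP 1, 2 and 4 lay above every HFD and ND library and FSP 3 below every one. C1qc followed at 13.8, 13.2, 1.40 and 10.6 FPKM in FSP, 7.28, 6.47, 2.87 and 3.30 FPKM in HFD, and 2.93, 2.97 and 2.09 FPKM in ND.

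The chains kept close proportions within a library while their level varied 9.17-fold between libraries. C1qa over C1qb ran from 1.01 to 1.59 and C1qc over C1qb from 0.779 to 1.32 over the 11 libraries. In FSP against HFD the log2 changes were 0.59 (C1qa, SE 0.52, limma adjusted p = 0.591), 0.63 (C1qb, SE 0.47, limma adjusted p = 0.508) and 0.63 (C1qc, SE 0.51, limma adjusted p = 0.546). Without FSP 3 all 3 chains rose, by 1.22 (C1qa, limma adjusted p = 0.0417), 1.18 (C1qb, limma adjusted p = 0.0409) and 1.25 (C1qc, limma adjusted p = 0.0276) on the log2 scale. The changes in FSP against ND were 1.26, 1.09 and 1.27 with all libraries and 1.88, 1.64 and 1.89 without FSP 3, where all 3 passed the threshold. Those in HFD against ND were 0.67, 0.46 and 0.64, none past the threshold.

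The integrins and the adhesion receptor did not move together. Itgam (CD11b) stood at 1.95, 1.88, 2.22 and 2.81 FPKM in FSP 1 to 4, at 2.03, 2.12, 2.01 and 1.48 FPKM in HFD 1 to 4, and at 2.63, 2.87 and 2.34 FPKM in ND 1 to 3. All HFD libraries lay below all ND libraries, with a log2 change of −0.31 (SE 0.14, limma adjusted p = 0.123). Its partner chain Itgb2 (CD18), shared with other leukocyte integrins, ran from 0.238 (FSP 3) to 4.35 FPKM (FSP 1) in FSP, 0.541 to 2.69 in HFD and 0.208 to 0.678 in ND. Itgax (CD11c), carried by dendritic cells and intestinal macrophages, had 1.88, 1.54, 0.218 and 1.14 FPKM in FSP 1 to 4, 0.957, 0.883, 0.495 and 0.440 FPKM in HFD 1 to 4, and 0.367, 0.315 and 0.199 FPKM in ND 1 to 3. HFD lay above ND without overlap (exact permutation p = 0.0857). Adgre1 stood at 0.0313 FPKM in FSP 3, at 0.292 to 0.340 in the other FSP libraries, at 0.106 to 0.216 in HFD and at 0.163 to 0.273 in ND.

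Among scavenger, lectin and pattern receptors no member was called in any comparison. Cd14, a co-receptor for bacterial lipopolysaccharide, stood at 1.08, 1.96, 1.14 and 1.94 FPKM in FSP 1 to 4, at 1.61, 2.43, 2.53 and 2.70 FPKM in HFD 1 to 4, and at 2.60, 2.79 and 2.43 FPKM in ND 1 to 3. All FSP libraries lay below all ND libraries (log2 change −0.53, SE 0.17, limma adjusted p = 0.184), and they overlapped HFD through HFD 1 (log2 change −0.40, SE 0.16, limma adjusted p = 0.210). Mrc1, the mannose receptor, ran from 0.824 to 1.87 FPKM in FSP, 0.807 to 1.08 in HFD and 0.865 to 1.11 in ND. Cd163, the haemoglobin scavenger receptor, was counted by 15, 0, 4 and 27 fragments in FSP 1 to 4, by 1, 40, 14 and 9 in HFD 1 to 4, and by 20, 22 and 7 in ND 1 to 3, with no order between groups. The lectin receptors Cd209a and Clec10a stayed at or under 0.540 FPKM in every library, with FSP 4 the highest in both and 1 fragment each in FSP 3. Cd209a belongs to a family of similar genes, and no source states how reads were shared among them.

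The Fc receptors bind the constant part of antibodies, and the adaptors Fcer1g and Tyrobp (DAP12) carry their signal and that of related receptors. Fcer1g stood at 9.77, 8.87, 1.67 and 7.71 FPKM in FSP 1 to 4, at 5.78, 4.23, 4.07 and 4.49 FPKM in HFD 1 to 4, and at 2.29, 3.15 and 1.96 FPKM in ND 1 to 3. FSP 3 lay below all 7 HFD and ND libraries, the other FSP libraries above them, and HFD above ND. Its log2 change in FSP against HFD was 0.33 (SE 0.36, limma adjusted p = 0.684), and without FSP 3 0.80 (SE 0.16, limma adjusted p = 0.0210). HFD against ND gave 0.71 (SE 0.39, limma adjusted p = 0.205). Leaving out FSP 3 kept that change and brought the SE to 0.16 (limma adjusted p = 0.0125). Tyrobp ran from 1.14 (FSP 3) to 11.9 FPKM (FSP 2) in FSP, 3.69 to 9.01 in HFD and 2.67 to 3.80 in ND. Fcgr3 had 1.39, 1.39, 0.186 and 1.19 FPKM in FSP 1 to 4, against 0.381 to 0.702 in HFD and 0.596 to 0.643 in ND. Fcgr1, the high-affinity receptor, ran from 0.0304 to 0.378 FPKM in FSP, 0.0436 to 0.252 in HFD and 0.0312 to 0.121 in ND.

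Lgmn, a lysosomal cysteine protease (legumain) that trims antigens and cathepsins, was the only member called with all libraries. It stood at 17.0, 15.1, 12 and 16.3 FPKM in FSP 1 to 4, at 6.88, 8.90, 7.95 and 8.50 FPKM in HFD 1 to 4, and at 24.4, 20.8 and 13.6 FPKM in ND 1 to 3. HFD lay below FSP and below ND with no overlap. In FSP 3 Lgmn stood at 12 FPKM while Csf1r stood at 0.650 and C1qa at 1.87 FPKM. Which cells made Lgmn RNA in this whole tissue was not determined. Lgmn rose by 0.82 in FSP against HFD on the log2 scale (SE 0.17, limma adjusted p = 0.0281), at 15.1 ± 2.21 FPKM in FSP and 8.06 ± 0.874 FPKM in HFD (SD, n = 4 each), a ratio of 1.87. It fell by 1.16 in HFD against ND (SE 0.19, limma adjusted p = 0.00213), to a ratio of 0.410, with 19.6 ± 5.50 FPKM in ND (SD, n = 3). The change in FSP against ND was −0.33 (SE 0.19, limma adjusted p = 0.441).

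The Lgmn call in HFD against ND held under every alternative run, with limma adjusted p at most 0.0167 when a library was left out. The call in FSP against HFD did not: limma adjusted p lay above 0.05 without FSP 1, 2 or 4, HFD 1, 3 or 4, or ND 2 (at most 0.0959), without a filter (0.0719), with rescaling to an equal sum without mitochondrial genes (0.0592) and by voom (0.0567). The difference kept its sign throughout. Distal small intestine genes moved with Lgmn: the 13 genes listed for this stretch of gut averaged 5.74 to 7.39 as log2(FPKM + 1) in FSP, 4.24 to 5.03 in HFD and 6.93 to 7.96 in ND. Of these 13 genes 7 rose in FSP against HFD (6 with median-ratio scaling) and 12 fell in HFD against ND (10 with that scaling), and none was at 0 in all libraries of a group. Proximal small intestine genes ran the other way, averaging 5.45 to 5.91 in FSP, 5.95 to 6.51 in HFD and 4.12 to 5.38 in ND, and of 10 tested 7 rose and 2 fell in HFD against ND. Of 12 epithelial genes Cldn7 and Epcam rose in FSP against HFD (0.72 and 0.71) and were among 3 that fell in HFD against ND (−0.72 and −0.58), and none of the 12 passed in either comparison with median-ratio scaling. The part of these genes in the Lgmn result was not tested.

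The other lysosomal and effector proteins were not called with all libraries. Mpeg1, a pore-forming protein of phagocytes, stood at 7.49, 7.00, 1.00 and 4.48 FPKM in FSP 1 to 4, at 2.60, 3.35, 2.33 and 1.61 FPKM in HFD 1 to 4, and at 1.59, 1.22 and 0.805 FPKM in ND 1 to 3. HFD lay just above ND, and FSP 1, 2 and 4 above HFD. Its log2 change in FSP against HFD was 0.61 (SE 0.38, limma adjusted p = 0.427), and 1.07 without FSP 3 (SE 0.22, limma adjusted p = 0.0224). Against ND it was 1.26 (SE 0.41, limma adjusted p = 0.186), and 1.72 without FSP 3 (limma adjusted p = 0.00650). Cd68, a lysosomal glycoprotein, ran from 0.778 to 3.34 FPKM in FSP, 0.947 to 2.54 in HFD and 0.788 to 1.16 in ND.

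Lyz2, the lysozyme of macrophages, had the highest mean FPKM of the members over all libraries, though Irf8 and Lgmn stood above it in FSP 3, HFD 4 and every ND library. Lyz2 stood at 93.4, 48.6, 5.63 and 30.3 in FSP 1 to 4, at 57.9, 51.3, 23.6 and 7.49 in HFD 1 to 4, and at 14.7, 13.4 and 12 in ND 1 to 3. The groups overlapped. Lyz1, the near-identical Paneth cell gene, stood at 18.6 to 56.6 FPKM in FSP, 14.1 to 75.6 in HFD and 29.5 to 36.3 in ND, so the split of reads between the pair makes the Lyz2 level uncertain. Cybb, the membrane subunit of the phagocyte oxidase, had 5.05, 2.36, 0.273 and 0.844 FPKM in FSP, 2.75, 3.24, 1.18 and 0.307 FPKM in HFD, and 0.508, 0.222 and 0.219 FPKM in ND. Laptm5, a lysosomal membrane protein of blood cells, had 20.3, 7.64, 0.695 and 3.59 FPKM in FSP, 9.83, 11.0, 5.16 and 1.65 FPKM in HFD, and 1.81, 1.47 and 1.49 FPKM in ND. For both genes FSP 3 and HFD 4 lay within or below the range of the ND libraries, and no comparison passed the threshold.

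**Figure D3:**
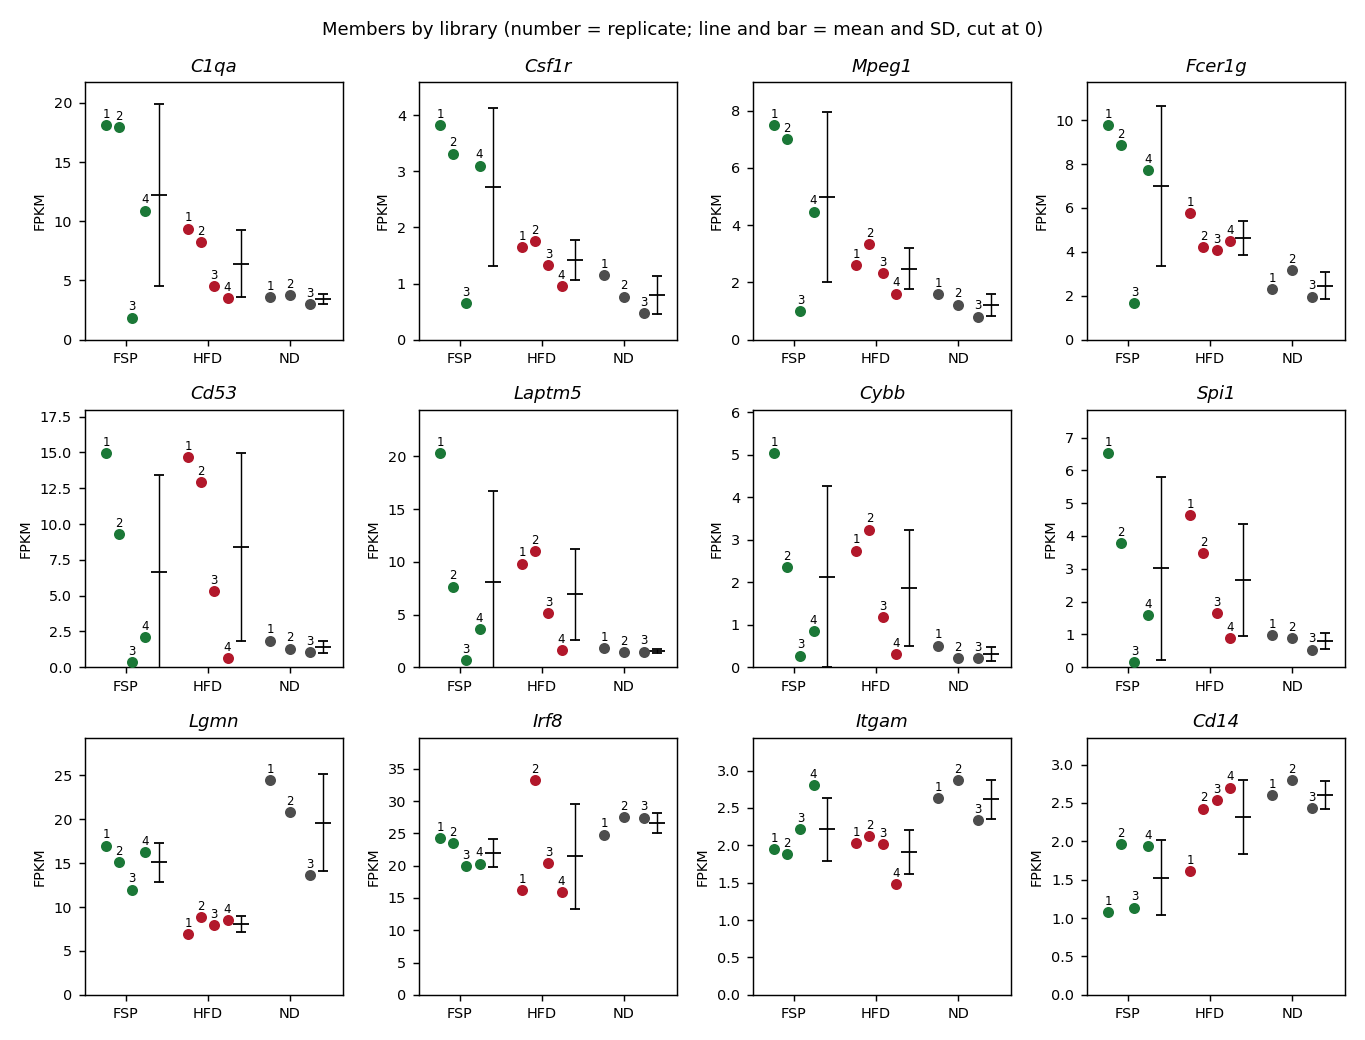
FPKM of 12 members in each library (points, numbered by replicate) with the mean and SD of each group beside the points, the SD bar cut at 0. FSP 3 lies at or near the bottom for the first 8 genes, and Lgmn shows HFD at 6.88 to 8.90 FPKM, below all FSP and ND libraries.

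Of the transcription factors, Spi1 (PU.1) stood at 6.53, 3.78, 0.147 and 1.60 FPKM in FSP 1 to 4, at 4.64, 3.47, 1.65 and 0.887 FPKM in HFD 1 to 4, and at 0.991, 0.885 and 0.537 FPKM in ND 1 to 3. HFD overlapped ND through HFD 4. Irf8, which also acts in B cells and is induced by interferon, was far more even, at 24.2, 23.4, 20.0 and 20.3 FPKM in FSP, 16.2, 33.2, 20.4 and 15.9 FPKM in HFD, and 24.8, 27.5 and 27.4 FPKM in ND. In FSP 3 Irf8 stood at 20.0 FPKM while Spi1 stood at 0.147, so Irf8 did not share the drop of that library. HFD 2 was the only HFD library above ND in Irf8. With all libraries HFD differed from ND by −0.36 on the log2 scale (SE 0.21, limma adjusted p = 0.230), and without HFD 2 it fell by 0.58 (limma adjusted p = 0.0151). Batf3, required by cross-presenting dendritic cells, had 51, 28, 1 and 31 fragments in FSP, 23, 27, 12 and 7 in HFD, and 12, 11 and 5 in ND.

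The remaining members are membrane and cytoskeletal proteins. Cd53, a tetraspanin of most leukocytes, stood at 15.0, 9.28, 0.374 and 2.08 FPKM in FSP 1 to 4, at 14.7, 13.0, 5.31 and 0.661 FPKM in HFD 1 to 4, and at 1.85, 1.30 and 1.07 FPKM in ND 1 to 3. The change in HFD against ND was 1.54 on the log2 scale (SE 0.87, limma adjusted p = 0.211), with 3 HFD libraries above ND and HFD 4 below. Aif1 (IBA1), an actin-binding protein of macrophages, ran from 0.525 to 6.46 FPKM in FSP, 1.51 to 5.95 in HFD and 1.95 to 2.45 in ND. Ms4a7 stood at 1.38, 1.93, 0.0764 and 1.16 FPKM in FSP, against 0.329 to 0.842 in HFD and 0.223 to 0.314 in ND, with HFD above ND (exact permutation p = 0.0571). Cd86, a costimulatory ligand for T cells, ran from 0.0834 to 1.67 FPKM in FSP, 0.0853 to 0.666 in HFD and 0.0571 to 0.130 in ND.

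Groups were fully apart for few members. In FSP against HFD 1 of the 20 tested members lay above without overlap (Lgmn), against 8.52% of all tested genes, and 0 below, against 2.3%. Of the 13 members under the filter 0 lay above, against 2.24% of genes under the filter with at least 10 fragments, and 0 below, against 1.65%. For FSP against ND 0 of the 20 lay above, against 5.57%, 2 lay below (Cd14 and Irf8), against 10.9%, 1 of the 13 lay above (Xcr1), against 2.88%, and 0 of the 13 below, against 5.1%. In HFD against ND 2 of the 20 lay above (Fcer1g and Mpeg1), against 9.28%, 2 below (Lgmn and Itgam), against 33.6%, 4 of the 13 above (Xcr1, Flt3, Itgax and Ms4a7), against 6.77%, and 0 of the 13 below, against 14.7%.

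B cell genes varied between the same libraries as many members. Cd79a, a signalling chain of the B cell receptor, stood at 95.3, 44.8, 0.733 and 4.07 FPKM in FSP 1 to 4, at 99.3, 59.3, 22.8 and 1.31 FPKM in HFD 1 to 4, and at 1.47, 1.06 and 0.752 FPKM in ND 1 to 3. Cd79a was thus low in FSP 3, FSP 4 and HFD 4. The 14 B and plasma cell genes averaged 1.46 to 4.33 as log2(FPKM + 1) in FSP, 1.55 to 3.65 in HFD and 1.45 to 1.56 in ND, and summed to 207 to 893, 218 to 372 and 154 to 189 FPKM in these groups. The sum did not follow Cd79a in FSP 4, where it reached 460 FPKM with Jchain, the joining chain of secreted antibodies, at 335 FPKM. Of the 13 tested B and plasma cell genes Jchain rose in FSP against ND (2.76, limma adjusted p = 0.0446, and 0.0544 with median-ratio scaling), and Sdc1, made by plasma cells and also by epithelium, fell in HFD against ND (−1.36, limma adjusted p = 0.00800). Monocyte and neutrophil genes summed to 450 FPKM in FSP 3, the highest of FSP, and to 653 FPKM in HFD 4, the highest of HFD. Plac8 alone made up 447 and 649 FPKM of these sums. As a mean of log2(FPKM + 1) the same list was lowest of FSP in FSP 3 (0.634) and lowest of HFD in HFD 4 (0.717). Cd53 ranked the libraries much as Cd79a did. FSP 4 separated the genes: Cd53 stood there at 2.08 FPKM, 0.142 of its level in HFD 1, whereas C1qa at 10.9 FPKM was 1.16 times and Csf1r 1.89 times the level in HFD 1. C1qa over Cd53 ran from 0.638 (HFD 2) to 5.33 (HFD 4), and 17 of the 33 members in FSP 4 lay above every HFD library while 16 did not. The ratios to HFD 1 and the count of 17 are of unscaled FPKM. Median-ratio scaling, with factors of 0.741 in HFD 1 and 1.15 in FSP 4, would lower those ratios, and the count was not repeated under it.

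**Figure D4:**
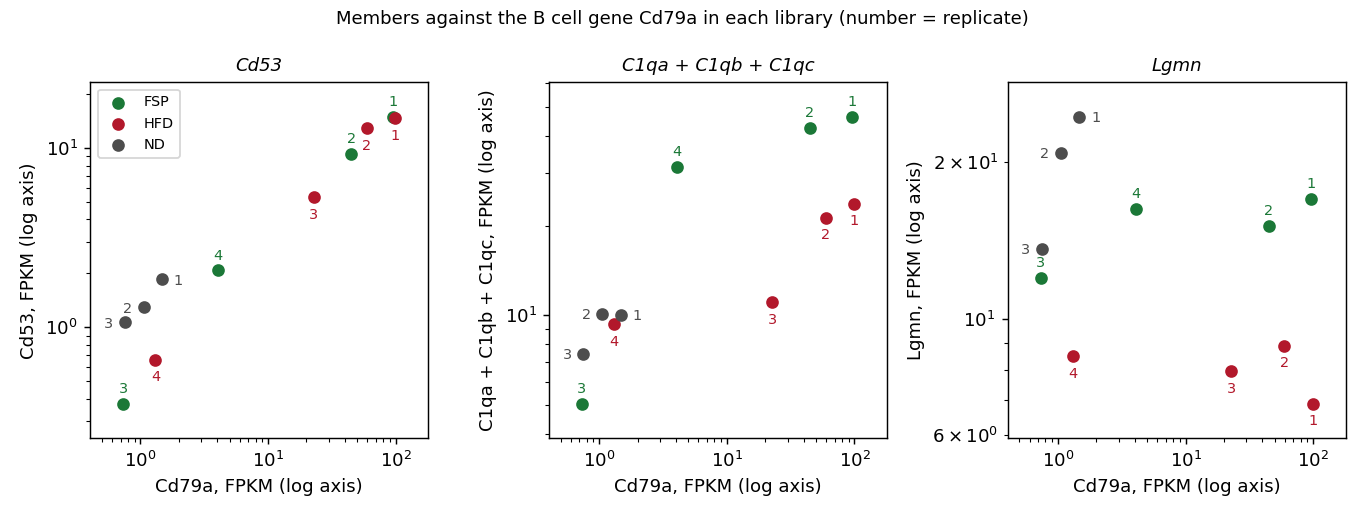
Cd53, the sum of the 3 C1q chains and Lgmn (vertical, FPKM, log axis) against the B cell gene Cd79a (horizontal, FPKM, log axis) in each of the 11 libraries, numbered by replicate. Cd53 and Cd79a lie near a line; FSP 4 has a C1q sum of 31.4 FPKM at 4.07 FPKM of Cd79a; Lgmn is low in all HFD libraries at any level of Cd79a.

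With the mean of 8 B cell genes as a covariate, an alternative chosen after seeing the data, 1 member (Lgmn, 0.84) was higher in FSP against HFD (beside 5.4% of all genes called), none was called in FSP against ND (beside 1.61%), and 1 (Lgmn, −1.22) was lower in HFD against ND (beside 12.7%). The covariate turned the sign of 14 members that had been positive in HFD against ND, C1q chains included, and none of the 14 was called with or without it. B and plasma cell genes averaged 1.55 to 3.65 as log2(FPKM + 1) in HFD and 1.45 to 1.56 in ND, so covariate and group were not independent in this fit. Among the 14, Cd53, Laptm5, Spi1, Cybb and Itgb2 are also made by B cells. Adipocyte genes also differed between FSP libraries, averaging 3.87, 1.47, 2.28 and 4.82 as log2(FPKM + 1) in FSP 1 to 4, against 1.91 to 3.36 in HFD and 2.06 to 2.30 in ND. FSP 2, the lowest of all libraries for these genes, had a C1q sum of 42.4 FPKM, against 46.3 in FSP 1 and 31.4 in FSP 4. The part of B cell and adipocyte genes in the members' values was not tested further.

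Other genes listed for the same cells gave few calls outside HFD against ND. Of 16 tested resident macrophage genes beyond the 33, none was called in FSP against HFD or in FSP against ND, and in HFD against ND 1 rose and 5 fell, beside 5.36% and 15.1% of all tested genes, with a median log2 change of −0.36. Those with the smallest p were the cathepsins Ctsc (−1.31) and Ctss (−0.97), the transcription factor Maf (−1.55) and Il34 (0.64), the other ligand of Csf1r besides Csf1. With median-ratio scaling 1 rose and 2 fell, and Ctss no longer passed (limma adjusted p = 0.0530). Maf stood at 82.2, 108, 59.0 and 119 FPKM in FSP 1 to 4, at 44.0, 69.0, 57.6 and 44.1 FPKM in HFD 1 to 4, and at 228, 153 and 108 FPKM in ND 1 to 3. In ND this is an order that the distal small intestine genes share, and the part of those genes in these falls was not tested. Ctss stood at 143 to 166 FPKM and Maf at 108 to 228 FPKM in ND, where Csf1r stood at 0.472 to 1.15 FPKM. The cells that made Ctss and Maf RNA in this whole tissue were not determined. Of 9 other dendritic cell genes, none was called in FSP against HFD or FSP against ND, while in HFD against ND Cd83, a maturation marker, rose (2.12), and Tlr3 (−0.93), a sensor of double-stranded RNA, and Bst2 (−0.83) fell. Bst2 did not pass with median-ratio scaling (limma adjusted p = 0.190). Cd83 stood at 12.7, 5.90, 0.796 and 2.06 FPKM in FSP 1 to 4, at 10.7, 7.97, 4.75 and 2.46 FPKM in HFD 1 to 4, and at 0.782, 0.625 and 0.302 FPKM in ND 1 to 3. Like the B cell gene Cd79a, it was lowest of FSP in FSP 3 and lowest of HFD in HFD 4. Which cells made Cd83 RNA was not determined.

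Of 14 tested genes of the phagocyte oxidase and its signalling, 4 fell in HFD against ND, beside 15.1% of all tested genes. None was called in FSP against HFD or FSP against ND, beside 3.74% and 1.03%. Cyba, the partner of Cybb in the oxidase membrane complex, fell by 1.78 (SE 0.43, limma adjusted p = 0.0149), while its partner Cybb did not pass at 0.99 (SE 0.51, limma adjusted p = 0.174). Cyba stood at 56.9, 157, 35.1 and 65.0 FPKM in FSP, at 32.2, 43.5, 27.8 and 15.4 FPKM in HFD, and at 91.3, 99.0 and 105 FPKM in ND. The kinase Lyn (−0.39) and the GTPase Rac1 (−0.34) were also among those that fell. Cyba and Rac1, the latter at 157 to 233 FPKM over all libraries, stood far above Cybb, at 0.219 to 0.508 FPKM in ND. The cells that made Cyba and Rac1 RNA in this whole tissue were not determined. With median-ratio scaling none of the 14 was called and Cyba stood at −1.53 (limma adjusted p = 0.0583). Of 16 shared leukocyte genes 1 rose in HFD against ND (Cytip, 0.60, not called when libraries were rescaled to an equal sum), beside 5.36% of all tested genes. None of the 16 was called in the comparisons with FSP. Of 3 tested monocyte and neutrophil genes Plac8, which stood at 292 to 447 FPKM in FSP, 506 to 649 in HFD and 270 to 329 in ND, fell in FSP against HFD (−0.68) and rose in HFD against ND (0.96). The fall did not pass with median-ratio scaling (limma adjusted p = 0.0795). S100a8 and S100a9, of the same list, stayed at or under 0.288 FPKM in every library. Which cells made Plac8 RNA in this whole tissue was not determined.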

How the data were processed

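Per the labels' protocols, RNA was taken up in TRIzol and a VAHTS Universal V6 kit was used for the libraries. Tools named in the submitters' processing notes are fastp, HISAT2, HTSeq and R 3.2.0, with mm10 as build. The annotation, strand setting and FPKM tool were not given in the sources used here. For each of 11 libraries the authors deposited FPKM values, and the single-library tables held the same values as the table of all libraries. FPKM divides by each library's total, so abundant classes of RNA push down the values of all other genes.

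Groups and replicate numbers came from the sample titles. The members and all lists were chosen with earlier results of these data known. Members may all be named; of each other list, at most 4 genes past the threshold with the smallest p. A gene that this rule names is not reported here. Cd79a, Lyz1, Clec9a, S100a8 and S100a9 fall outside the rule and were chosen after their values were seen. The fit was made by limma 3.58.1 (R 4.3.3) on log2(FPKM + 1), with the 3 groups in a single fit, an intensity trend and no covariate, over 10296 genes with a mean of at least 1 FPKM. Each comparison's two-sided p-values received Benjamini-Hochberg adjustment over all tested genes (threshold 0.05). Changes on this scale understate those of low genes. The 13 members under the filter were compared by exact permutation (two-sided) of the difference in mean log2(FPKM + 1), unadjusted, whose smallest p is 0.0286 for 4 against 3 and for 4 against 4 libraries.

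Fragments per gene were recovered from FPKM: library totals came from 105 single-exon genes, and the shortest length that made all 11 values of a gene whole (tolerance 0.01) gave whole fragments for all 33 members and 99.9% of tested genes. Members with few fragments carry the largest counting error. The limma fit was tested on simulated data with known changes. Alternatives were another pseudocount (0.1), other filters, other scalings, the 2 groups alone, a replicate block and each library left out; voom on recovered fragments (mean of at least 10) and a B cell covariate (the mean of 8 genes) were added after seeing the data. Gene positions were taken from the GENCODE annotation and promoters from RefSeq tables of GRCm38.p6. The 105 single-exon genes had the same exon length in both sources.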

Additional observations from a re-analysis of the deposited data

Results flagged for a closer look

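In 66 groups of 4 (each member in FSP and in HFD), the highest or lowest library was marked where its gap to the nearest other, over the range of log2(FPKM + 1), passed Dixon's critical value; chance marks about 1 group in 20. Csf1r stood at 0.650 FPKM in FSP 3, against 3.82, 3.31 and 3.10 FPKM in FSP 1, 2 and 4. C1qc stood there at 1.40 FPKM, against 13.8, 13.2 and 10.6 FPKM. For Fcer1g the value in FSP 3 was 1.67 FPKM, against 9.77, 8.87 and 7.71 FPKM, and for Fcgr3 it was 0.186 FPKM, against 1.39, 1.39 and 1.19 FPKM. Adgre1 had 0.0313 FPKM in FSP 3, against 0.292, 0.340 and 0.304 FPKM in the other FSP libraries. Of the 6 marked values, 5 are thus low values of the same library, and they are not independent of each other. The other was Itgam in HFD 4, at 1.48 FPKM, against 2.03, 2.12 and 2.01 FPKM in HFD 1 to 3.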

How the results depend on the processing

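Members called in HFD against ND numbered 1, and 3 with the 2 groups alone (Fcer1g and Mpeg1 higher), 3 with the replicate block (Cd53 and Cybb higher) and 1 to 2 with a library left out (2 without FSP 3 or HFD 2). FSP against HFD gave 1, and 0 without a filter, with an equal sum without mitochondrial genes or by voom, and 0 to 7 with a library left out (7 without FSP 3, 0 without FSP 1, 2 or 4, HFD 1, 3 or 4, or ND 2). FSP against ND gave 0, and 0 to 6 with a library left out (6 without FSP 3). All genes called in HFD against ND numbered 2109, 1312 with the B cell covariate and 849 to 2678 with a library left out (849 without ND 2, 877 without ND 1). FSP against HFD gave 385, 117 without a filter, 245 with median-ratio scaling, 76 with the 2 groups alone, 213 by voom and 48 to 458 with a library left out (48 without FSP 4, and also moved by over 1.5 times without FSP 1 or 2, HFD 1, 3 or 4, or ND 2). FSP against ND gave 106, 58 without a filter, 53 by voom, 166 with the covariate and 13 to 201 with a library left out (13 without ND 2, and also moved by over 1.5 times without FSP 1, HFD 1 or 3, or ND 1).

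Signs turned only for members that were not called in either fit. With the B cell covariate the log2 changes in HFD against ND were −0.14 (Cd68), −0.015 (Csf1r), −0.086 (Itgb2), −0.63 (Lyz2), −0.27 (C1qa), −0.38 (C1qb), −0.16 (C1qc), −0.0039 (Mpeg1), −0.57 (Aif1), −0.22 (Tyrobp), −0.065 (Cybb), −0.087 (Laptm5), −0.19 (Spi1) and −0.29 (Cd53). With it they were 0.28 (Laptm5), 0.25 (Spi1) and 0.088 (Cd53) in FSP against HFD, and −0.026 (Lyz2), −0.20 (Aif1) and −0.20 (Cd53) in FSP against ND. With median-ratio scaling Mrc1 (0.094) and Cd14 (0.046) turned in HFD against ND, and Tyrobp (−0.017), Cybb (−0.069) and Irf8 (−0.048) in FSP against HFD. An equal sum without mitochondrial genes gave −0.056 (Cybb) and −0.0069 (Irf8) there, a pseudocount of 0.1 gave −0.036 (Cybb) and voom −0.034 (Cybb). With a library left out, changes ran from −0.090 to 0.00035 (Mrc1) and −0.069 to 0.42 (Aif1) in HFD against ND. Those in FSP against HFD ran from −0.044 to 0.38 (Cd68), −0.22 to 0.49 (Itgb2), −0.43 to 0.90 (Lyz2), −0.15 to 0.62 (Aif1), −0.18 to 0.68 (Tyrobp), −0.38 to 0.37 (Cybb), −0.74 to 0.48 (Laptm5), −0.47 to 0.44 (Spi1), −1.12 to 0.20 (Cd53) and −0.024 to 0.32 (Irf8). The cause of these shifts was not tested. Over the 20 tested members, the 3 comparisons and the alternatives run, 1173 of 1260 values kept direction and side of the threshold.

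Same-numbered libraries share only a number in the labels, and their deviations from the group means correlated at −0.094 to 0.043 in HFD against ND, 0.018 to 0.454 in FSP against HFD and −0.099 to 0.203 in FSP against ND, so the numbers were not taken as pairs. With the replicate block 3 members were called in HFD against ND (Cd53, 2.00, and Cybb, 1.24, higher, Lgmn lower), 1 in FSP against HFD and none in FSP against ND, beside 2357, 337 and 77 of all genes. Libraries correlated best with their own number in 0 of 3, 0 of 4 and 2 of 3 pairs in these comparisons. Depth limits members counted by few fragments, such as Xcr1 and Flt3 in ND.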
